A study of Mus musculus with 26 samples.

Results

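Eph receptors and ephrins are partner proteins on the surface of neighbouring cells, and 10 of their genes were followed here in nuclei of the embryonic mouse cortex: the receptors Epha3, Epha4, Epha5, Epha7, Ephb1 and Ephb2, and the ephrins Efna3, Efna5, Efnb1 and Efnb2. They were taken by gene symbol from the 30406 genes listed in all 8 cortex libraries, and the 12 remaining Eph and ephrin genes of the mouse are given below as a comparison list. The 8 libraries, of 26 in the series, hold single-nucleus RNA sequencing of the prospective somatosensory cortex of male embryos at E15.5 (embryonic days are written E), all on a C57Bl/6N background. At E12.5 dams had received an injection of saline or of poly(I:C), a double-stranded RNA that sets off an antiviral response and serves as a model of maternal immune activation (MIA). Embryos were wild-type littermates or carried no functional Csf1r (Csf1r-/-, here Csf1r-null), a germline loss that affects every Csf1r-expressing cell and removes microglia. Each of the 4 groups (wild-type saline, wild-type MIA, Csf1r-null saline and Csf1r-null MIA) has 2 libraries. The libraries came from few dams, whose litters held both genotypes, and the sources used here do not tie libraries to embryos or dams. The p-values for treatment and genotype thus measure the spread between these libraries only. For classes of nuclei, compared below within libraries, p-values measure the spread left once differences between these libraries are taken out.

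Eph receptors are receptor tyrosine kinases. A-type receptors mostly bind ephrin-A proteins, which are tethered to the membrane by a lipid anchor, and B-type receptors mostly bind the transmembrane ephrin-B proteins, with EphA4 binding both kinds. Binding signals into both cells, usually through the actin cytoskeleton, and often ends in repulsion. In the developing cortex the family is known for roles in progenitor maintenance, in the migration of newborn neurons, in the guidance of callosal, corticospinal and thalamic axons and in the drawing of area borders.

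Nuclei with at least 500 unique molecular identifiers (UMIs, one per captured transcript) and 200 genes numbered 4552 to 6198 per library and 43456 in all, with 9897721 to 17605575 UMIs per library and a median of 1469 to 2954 UMIs per nucleus. After removal of 1917 likely doublets, 41539 nuclei fell into 19 clusters, and 30195 of them (72.7%) into 7 classes named from marker genes, with neither the Eph and ephrin genes nor their pathway genes taking part in the clustering. The classes were AP-like (apical progenitors), IP-like (intermediate progenitors), MN-like (migrating neurons), CPN-like, SCPN-like and CThPN-like (callosal, subcerebral and corticothalamic projection neurons) and IN-like nuclei (interneurons). Levels are given in CPM: the UMIs of a gene summed over the nuclei of a class in 1 library, per 1000000 UMIs of that sum. They were compared between classes and libraries, never between genes. The SCPN-like class, 1 cluster, was named with 3 markers at 20 CPM or more, the fewest allowed. Clusters of the other classes had 6 to 10. Library pairs shared 0 to 14 cell barcodes.

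There were 2 libraries that went against their genotype labels. Csf1r, the targeted gene, had 23 and 11 UMIs in wild-type saline replicates 1 and 2, 22 and 0 in the libraries labelled wild-type MIA replicates 1 and 2, 4 and 10 in those labelled Csf1r-null saline replicates 1 and 2, and 2 and 1 in Csf1r-null MIA replicates 1 and 2. The cluster of microglia-like nuclei held 6 to 9 nuclei of each of the other wild-type libraries, 0 of 5085 nuclei in the second library labelled wild-type MIA, which allows a share of up to 0.059%, and 7 of 5677 in the second one labelled Csf1r-null saline. Group names below are those of the labels, and results that rest on these libraries are also given without them. One of the unnamed clusters (cluster 13, led by Ebf1 and Isl1) had 920 of its 1056 nuclei in wild-type saline replicate 1. That library stands apart below.

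The EphA receptor genes divided the cortical lineage in different places. Epha3 (chromosome 16, 63543534 to 63864175, minus strand, in the GRCm38 build that mm10 names) was lowest in AP-like nuclei, at 36.7 CPM ± 36.4 (SD, n = 8), where wild-type saline replicate 1 had 125 CPM and the other 7 libraries 15.7 to 37.7. Its level was 537 CPM ± 44.6 in IP-like, 817 ± 80.5 in MN-like and 598 ± 108 in CPN-like nuclei, and 102.1 ± 26.3 in SCPN-like, 172 ± 22.3 in CThPN-like and 191 ± 26.1 in IN-like nuclei. The ranges of MN-like (673 to 930 CPM) and CPN-like nuclei (426 to 720 CPM) overlapped, although MN-like nuclei were higher in 8 of 8 libraries. CPN-like and IP-like nuclei overlapped as well, while IP-like nuclei (488 to 605 CPM) stood above the whole range of IN-like ones (150 to 220 CPM). In the edgeR quasi-likelihood test with Benjamini-Hochberg adjustment, in which the classes of a library were compared with the library as a block, Epha3 was higher in IP-like than in AP-like nuclei by 3.96 ± 0.15 (log2 ± SE, adjusted p = 3.36e-40). Without wild-type saline replicate 1 that difference was 4.63. It was higher again in MN-like than in IP-like nuclei by 0.78 ± 0.09, lower in SCPN-like than in CPN-like nuclei by a log2 difference of -2.50 ± 0.11 (adjusted p = 3.05e-36), and higher in CThPN-like than in SCPN-like nuclei by 0.80 ± 0.11. The step between progenitor classes held in dividing nuclei too, with 86.5 CPM in wild-type saline replicate 1 and 0 to 21.1 in the other 7 libraries of dividing AP-like nuclei, and 325 to 516 CPM in dividing IP-like nuclei. IN-like nuclei were lower than the mean of the 3 projection neuron classes by a log2 difference of -0.29 ± 0.11 (adjusted p = 0.0242), a call lost with DESeq2 (-0.25), with doublets kept (-0.21) and without wild-type saline replicate 2, wild-type MIA replicate 1 or Csf1r-null saline replicate 2 (-0.25 to -0.23).

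The 250 bases before the start of Epha3 in RefSeq (GRCm38.p6, chr16:63864176-63864425, minus strand, written 5′ to 3′) are shown because Epha3 had the largest progenitor step of the 10 genes. They were searched on both strands for CCAAT (the box bound by nuclear factor Y), TGGGAA (the core of the sites of RBPJ, the nuclear partner of Notch) and CAGATG (an E-box of neurogenic basic helix-loop-helix factors). None of the 3 motifs was found in the window, so no base stands in capitals.
Epha3 promoter: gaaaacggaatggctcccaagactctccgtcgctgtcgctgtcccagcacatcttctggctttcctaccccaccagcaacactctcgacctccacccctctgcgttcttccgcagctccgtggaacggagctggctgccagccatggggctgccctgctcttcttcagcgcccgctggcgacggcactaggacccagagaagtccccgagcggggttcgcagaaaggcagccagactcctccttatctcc

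Epha4 (chromosome 1, 77367185 to 77515088, minus strand) encodes the receptor that binds both classes of ephrin. Its levels were 456 CPM ± 63.3 in IP-like and 406 ± 65.8 in AP-like nuclei, whose ranges overlapped, then 318 ± 54.3 in MN-like nuclei. CThPN-like nuclei followed at 123 CPM ± 12.8, below the whole range of MN-like and above the whole range of CPN-like nuclei (82.4 ± 18.2). SCPN-like nuclei had 66.8 CPM ± 7.83 and IN-like nuclei 39.5 ± 25.4. Epha4 fell from IP-like to MN-like nuclei by a log2 difference of -0.36 ± 0.08 (edgeR, adjusted p = 4.67e-05) and was lower in IN-like nuclei than in the mean of the projection classes by -1.08 ± 0.14 (adjusted p = 1.13e-10). It was higher in CThPN-like than in SCPN-like nuclei by 0.93 ± 0.10 (adjusted p = 9.21e-14). The difference between IP-like and AP-like nuclei, 0.30 ± 0.08 (adjusted p = 0.00157), was lost with DESeq2 (0.26) and with finer clusters (0.10).

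Epha5 (chromosome 5, 84054761 to 84417382, minus strand) encodes a receptor known from axon mapping. It was found in every class, from 1575 CPM ± 148 in SCPN-like to 4662 ± 502 in MN-like nuclei, with IN-like nuclei at 4269 ± 938. In IN-like nuclei wild-type saline replicate 1 had 6212 CPM and the other libraries 3289 to 4843. All 6 neighbouring pairs in the order of classes of Epha5 overlapped in range. Epha5 rose from IP-like (2071 CPM ± 259) to MN-like nuclei by 1.33 ± 0.06 (edgeR, adjusted p = 3.2e-34), was lower in SCPN-like than in CPN-like nuclei (2889 CPM ± 320) by -0.79 ± 0.06, and was higher in IN-like nuclei than in the mean of the projection classes by 1.02 ± 0.05 (adjusted p = 3.92e-34). Smaller differences also passed. IP-like nuclei were lower than AP-like nuclei (2550 CPM ± 346) by -0.17 ± 0.06 (adjusted p = 0.0183), a call lost without wild-type MIA replicate 1 (-0.15), and CThPN-like nuclei were higher than SCPN-like nuclei by 0.18 ± 0.06 (adjusted p = 0.0169). The latter call was lost with finer clusters (0.11), without both libraries that go against their labels (0.15) and without wild-type saline replicate 2, wild-type MIA replicate 1, either Csf1r-null saline library or Csf1r-null MIA replicate 1 (0.14 to 0.15). In the rare CR-like nuclei (Cajal-Retzius neurons, 137 nuclei in all) Epha5 had 159 CPM ± 60.3, below every library of the 7 classes.

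Epha7 (chromosome 4, 28813131 to 28967499, plus strand), whose receptor takes part in cortical progenitor death and in corticothalamic mapping, was a gene of CThPN-like nuclei. They had 212 CPM ± 38.9, with a range of 162 to 271 that lay above that of every other class. This separation was seen for the class as a whole, and its larger cluster alone, with 6695 of the nuclei, had 151 CPM ± 28.4 and a range of 113 to 192. MN-like nuclei came next at 104 CPM ± 16.3, with a range of 79.0 to 118 that overlaps the range of that cluster, and the other 5 classes had means of 54.1 to 76.9 CPM in overlapping ranges. Epha7 was higher in CThPN-like than in SCPN-like nuclei by 1.95 ± 0.09 (edgeR, adjusted p = 1.7e-35) and lower in IN-like nuclei than in the mean of the projection classes by -0.92 ± 0.12. It was higher in IP-like than in AP-like nuclei by 0.55 ± 0.14 and in MN-like than in IP-like nuclei by 0.61 ± 0.11.

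Among the EphB receptor genes, Ephb1 (chromosome 9, 101922128 to 102354693, minus strand), a receptor known for guiding axons at the midline, had the sharpest pattern. CThPN-like nuclei had 158 CPM ± 37.2 (106 to 203) and SCPN-like nuclei 78.2 ± 8.78 (68.7 to 90.9), ranges that did not overlap, and the other 5 classes had means of 4.17 to 10.0 CPM. Ephb1 was higher in SCPN-like than in CPN-like nuclei by 3.00 ± 0.16 (edgeR, adjusted p = 2.75e-29), higher again in CThPN-like nuclei by 1.03 ± 0.09 (adjusted p = 3.11e-18) and lower in IN-like nuclei than in the mean of the projection classes by -3.37 ± 0.26. Between progenitors and MN-like nuclei it did not pass the test, with 8.69, 6.96 and 4.17 CPM in AP-like, IP-like and MN-like nuclei. At these levels 1 library can turn a difference: IP-like against AP-like nuclei was -0.32 ± 0.39 with all libraries, 0.08 without wild-type saline replicate 1 and -1.03, then past the test, without Csf1r-null MIA replicate 1.

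The window before the start of Ephb1 (RefSeq, GRCm38.p6, chr9:102354694-102354943, minus strand, 5′ to 3′) is shown because its gene separated both subcortical classes from the other named classes. Capitals mark ATTGG, the reverse complement of CCAAT, which it holds at 2 places, 100 and 65 bases before the start.
Ephb1 promoter: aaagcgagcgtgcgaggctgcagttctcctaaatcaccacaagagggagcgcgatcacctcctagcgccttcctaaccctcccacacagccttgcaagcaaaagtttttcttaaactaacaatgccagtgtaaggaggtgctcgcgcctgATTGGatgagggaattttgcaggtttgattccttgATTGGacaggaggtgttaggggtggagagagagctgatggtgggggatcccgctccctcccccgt

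Ephb2 (chromosome 4, 136647539 to 136835988, minus strand), known for commissural axon guidance and synapse formation, varied less. Its mean levels ran from 39.0 CPM ± 12.45 in CThPN-like to 96.5 ± 17.8 in CPN-like nuclei, and the ranges of all neighbouring classes in its order overlapped. Ephb2 fell from AP-like (69.9 CPM ± 23.0) to IP-like nuclei (44.6 ± 15.2) by -0.53 ± 0.12 (edgeR, adjusted p = 9.96e-05) and was higher in MN-like nuclei (79.1 ± 20.4) than in IP-like ones by 1.00 ± 0.10 (adjusted p = 1.22e-14). It was lower in SCPN-like than in CPN-like nuclei by -0.64 ± 0.08 and lower again in CThPN-like nuclei by -0.51 ± 0.08. Ephb1 and Ephb2 thus ran in opposite directions across the projection classes. Against the mean of the projection classes IN-like nuclei gave -0.02 ± 0.09 for Ephb2, which did not pass the test.

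Efna3 (chromosome 3, 89313899 to 89322965, minus strand), which encodes an ephrin-A ligand, had 65.3 CPM ± 7.03 in CThPN-like, 57.8 ± 12.2 in SCPN-like and 52.2 ± 8.95 in CPN-like nuclei, with overlapping ranges, all above the whole ranges of the other 4 classes (3.69 to 17.7 CPM in the mean). Among the 7 classes Efna3 thus stood highest in the 3 projection neuron classes, and CR-like nuclei took no part in this comparison. It was higher in IP-like than in AP-like nuclei by 1.29 ± 0.36 (edgeR, adjusted p = 0.00154), from 23 UMIs in all AP-like nuclei and with the call lost when doublets were kept (0.39). It was higher in MN-like than in IP-like nuclei by 1.09 ± 0.22 and lower in IN-like nuclei than in the mean of the projection classes by -2.37 ± 0.17 (adjusted p = 1.04e-22). Efna5 (chromosome 17, 62604184 to 62881317, minus strand), known as a repellent that marks area borders, had 550 UMIs over all nuclei and mean levels of 1.78 to 8.69 CPM. Its summed counts did not pass the filter on low values for the comparison of classes. Where the filter was left off, Efna5 was higher in SCPN-like (5.59 CPM ± 2.85) than in CPN-like nuclei (1.78 ± 1.59) by 1.80 ± 0.36 (edgeR, adjusted p = 1.29e-05) and higher in IN-like nuclei than in the mean of the projection classes by 0.98 ± 0.28 (adjusted p = 0.00357).

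Of the ephrin-B genes, Efnb1 (chromosome X, 99136130 to 99148991, plus strand), known from neural progenitor maintenance, fell step by step along the lineage. AP-like nuclei had 468 CPM ± 86.2 (349 to 597), IP-like nuclei 255 ± 47.9 (198 to 305), MN-like nuclei 138 ± 19.4 (108 to 165) and CPN-like nuclei 74.3 ± 10.97 (59.5 to 91.7). None of these 4 ranges overlapped. The other 3 classes had means of 49.5 to 61.9 CPM. Efnb1 fell from AP-like to IP-like nuclei by -0.76 ± 0.06 (edgeR, adjusted p = 1.02e-18) and from IP-like to MN-like nuclei by -0.71 ± 0.07 (adjusted p = 2.18e-16). It was lower in CThPN-like than in SCPN-like nuclei by -0.29 ± 0.08 and lower in IN-like nuclei than in the mean of the projection classes by -0.33 ± 0.10, although by CPM it was lower there in 5 libraries and higher in 3. Dividing AP-like nuclei, at 444 CPM ± 47.3, and dividing IP-like nuclei, at 258 ± 29.5, lay near their non-dividing classes.

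The window before the start of Efnb1 (RefSeq, GRCm38.p6, chrX:99135811-99136060, plus strand, 5′ to 3′) is shown because its gene marked the progenitor end of the lineage. Capitals mark TGGGAA at 197 and 168 bases and ATTGG, the reverse complement of CCAAT, at 10 bases before the start.
Efnb1 promoter: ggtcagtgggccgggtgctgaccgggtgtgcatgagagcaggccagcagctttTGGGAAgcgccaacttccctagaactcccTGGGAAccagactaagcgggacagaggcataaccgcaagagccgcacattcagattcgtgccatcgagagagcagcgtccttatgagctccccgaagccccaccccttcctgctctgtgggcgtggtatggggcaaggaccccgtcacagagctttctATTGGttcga

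All 10 genes matched the RefSeq promoter table, with 12 starts. CCAAT stood before 7 of the 12 starts (Efnb1, Efnb2, Epha4, Ephb1, Ephb2 and both starts of Epha7), against 33.8% of the 32851 promoters searched. TGGGAA stood before 4 starts (Efnb1, Epha4 and both of Epha7), against 21.6%, and CAGATG before 1 (Efna3), against 14.4%. The windows of both Epha7 starts (chr4:28812881-28813130 and chr4:28812895-28813144) overlap, so sites that they share are counted for each start. The share of G and C in the windows ran from 54.0% to 74.8%, where the median of all promoters was 52.4%, and CG pairs numbered 10 to 32, where the median was 6. These counts describe letters only.

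Efnb2 (chromosome 8, 8617434 to 8661242, minus strand), a ligand that also acts in blood vessels and migrating cells, fell and rose again along the lineage. Its level was 348 CPM ± 44.5 in AP-like, 186 ± 10.99 in IP-like and 437 ± 62.9 in MN-like nuclei. The IP-like range of 168 to 201 lay below both others. The step down was -0.77 ± 0.07 (edgeR, adjusted p = 4.91e-17) and the step up 1.39 ± 0.06 (adjusted p = 5.38e-35). CPN-like nuclei had 377 CPM ± 46.2, SCPN-like nuclei 168 ± 31.0 and CThPN-like nuclei 136 ± 12.6, so that Efnb2 fell by -1.09 ± 0.06 and then by -0.27 ± 0.06 across these classes. IN-like nuclei had 344 CPM ± 38.3, below CPN-like nuclei but higher than the mean of the projection classes by 0.67 ± 0.06.

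**Figure D1:**
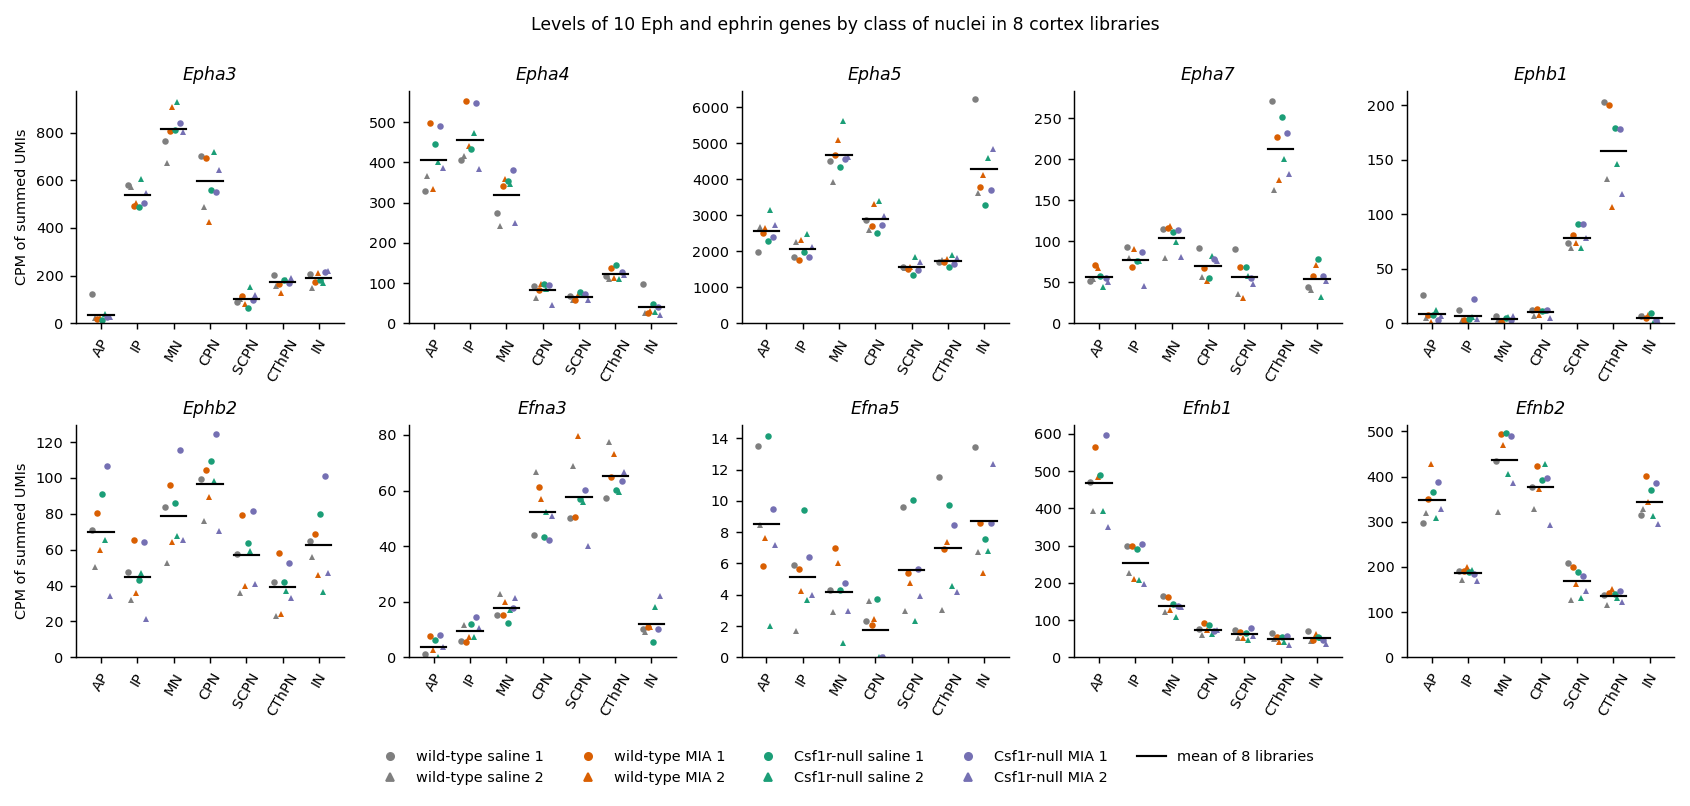
Levels of the 10 genes in CPM (vertical axes, each from 0 and on its own scale) in the 7 classes of nuclei, where each point is 1 of the 8 libraries, coloured by group and shaped by replicate number, and each bar is the mean. Epha7 and Ephb1 stand highest in CThPN-like nuclei (162 to 271 and 106 to 203 CPM), Efnb1 falls from AP-like to CPN-like nuclei with no overlap, and wild-type saline replicate 1 lies apart at 125 CPM of Epha3 in AP-like nuclei.

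Counted by comparison, most members differed wherever classes were set side by side, as did many other genes. Of the 9 members tested, 4 were higher and 4 lower in IP-like than in AP-like nuclei, where 26.1% and 26.8% of the 10903 genes tested were called higher and lower. From IP-like to MN-like nuclei 6 were higher and 2 lower (background 24.8% and 23.6%). From CPN-like to SCPN-like nuclei 1 was higher and 4 were lower (18.7% and 16.6%), and from SCPN-like to CThPN-like nuclei 5 were higher and 3 lower (19.8% and 14.4%). In IN-like nuclei 2 were higher and 6 lower than in the mean of the projection classes (19.9% and 22.9%). The median log2 difference of the members in these comparisons was, in turn, -0.17, 0.78, -0.24, 0.20 and -0.33, beside -0.0055 to 0.026 over all genes tested. Epha3, Epha5 and Efnb2 were called in all 5 comparisons. Epha4 (-0.24), Epha7 (-0.22), Efna3 (0.23) and Efnb1 (-0.18) were not called in SCPN-like against CPN-like nuclei. Efna3 (0.20) was not called in CThPN-like against SCPN-like nuclei. Each of these differences passed under at least 1 of the alternatives described below. Without both libraries that go against their labels Epha5 was lost from the CThPN-like comparison, and Efna5 then passed the filter and was called higher in SCPN-like nuclei, where the count became 2, and in IN-like nuclei, where it became 3.

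**Figure D2:**
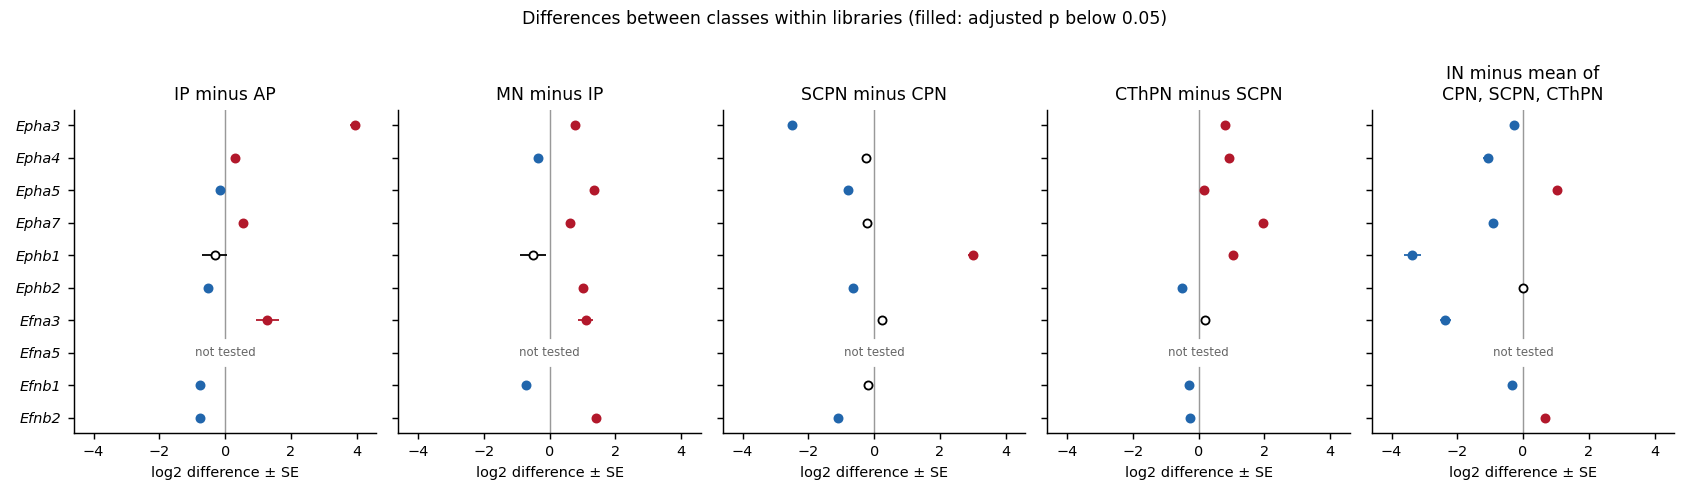
Log2 differences (horizontal axes, with SE) of 9 genes in 5 comparisons of classes, each fitted over 8 libraries with the library as a block, where filled points passed an adjusted p of 0.05, red for higher and blue for lower, and Efna5 is marked as not tested. Epha3 has the largest step from AP to IP (3.96), Ephb1 the largest from CPN to SCPN (3.00) and Epha7 the largest from SCPN to CThPN (1.95).

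The comparison list of other Eph and ephrin genes holds 12 genes, of which 6 passed the filter on low values. From AP-like to IP-like nuclei 3 were higher, Ephb6 (2.68 ± 0.23), a receptor that lacks kinase activity, Efna4 (0.98 ± 0.15) and Efna2 (0.53 ± 0.14), and Ephb3 (-1.34 ± 0.29) and Ephb4 (-1.03 ± 0.23) were lower. From IP-like to MN-like nuclei 3 were higher and 2 lower. Between projection classes only Ephb6 (-0.41 ± 0.15, SCPN-like against CPN-like) and Efna2 (-0.26 ± 0.08, CThPN-like against SCPN-like) were called. In IN-like nuclei Ephb3 (3.79 ± 0.33) and Efnb3 (0.97 ± 0.10) were higher, and Efna4 and Ephb6 were lower.

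Of 36 genes that carry Eph and ephrin signals into the cell (Src-family kinases, adaptors, exchange factors, phosphatases and scaffolds), 34 were tested. In IP-like against AP-like nuclei 13 were higher and 6 lower, in MN-like against IP-like 14 and 10, in SCPN-like against CPN-like 12 and 4, in CThPN-like against SCPN-like 11 and 8, and in IN-like nuclei against the mean of the projection classes 11 and 14. These shares stand beside the backgrounds given above. Chn2, a chimaerin of the family that acts downstream of EphA4, rose from AP-like to IP-like nuclei by 2.43 ± 0.18 (edgeR, adjusted p = 7.34e-22). Rgs3, a regulator that binds ephrin-B proteins, fell from IP-like to MN-like nuclei by -3.61 ± 0.24, was lower in CThPN-like than in SCPN-like nuclei by -2.84 ± 0.47 and higher in IN-like nuclei by 2.73 ± 0.29. Grip1, a scaffold of ephrin-B proteins, rose by 1.93 ± 0.23 from IP-like to MN-like nuclei. Vav3, an exchange factor used by Eph receptors, was higher in SCPN-like than in CPN-like nuclei by 1.68 ± 0.24 and lower in CThPN-like than in SCPN-like nuclei by -2.10 ± 0.21.

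Members also differed between clusters of 1 class, given here as values only. The CThPN-like class joins cluster 1 (6695 nuclei) and cluster 14 (838 nuclei). Epha7 had 632 CPM ± 147 in cluster 14 and 151 ± 28.4 in cluster 1, Epha3 353 ± 120 and 145 ± 15.9, and both were higher in cluster 14 in 8 of 8 libraries. Epha4 (51.1 CPM ± 13.5 against 133 ± 15.3) and Ephb1 (79.4 ± 23.2 against 169 ± 38.6) were lower there in 8 of 8. The MN-like class joins cluster 3 (4143 nuclei) and cluster 9 (2375 nuclei), and Epha4 (418 CPM ± 70.4 against 177 ± 25.6), Epha3 (931 ± 50.7 against 643 ± 45.5) and Efnb1 (158 ± 26.9 against 108 ± 18.9) were higher in cluster 3 in 8 of 8 libraries. Ephb2 went the other way in 7 of 8, with 67.7 CPM ± 15.4 in cluster 3 and 96.9 ± 28.6 in cluster 9.

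**Figure D3:**
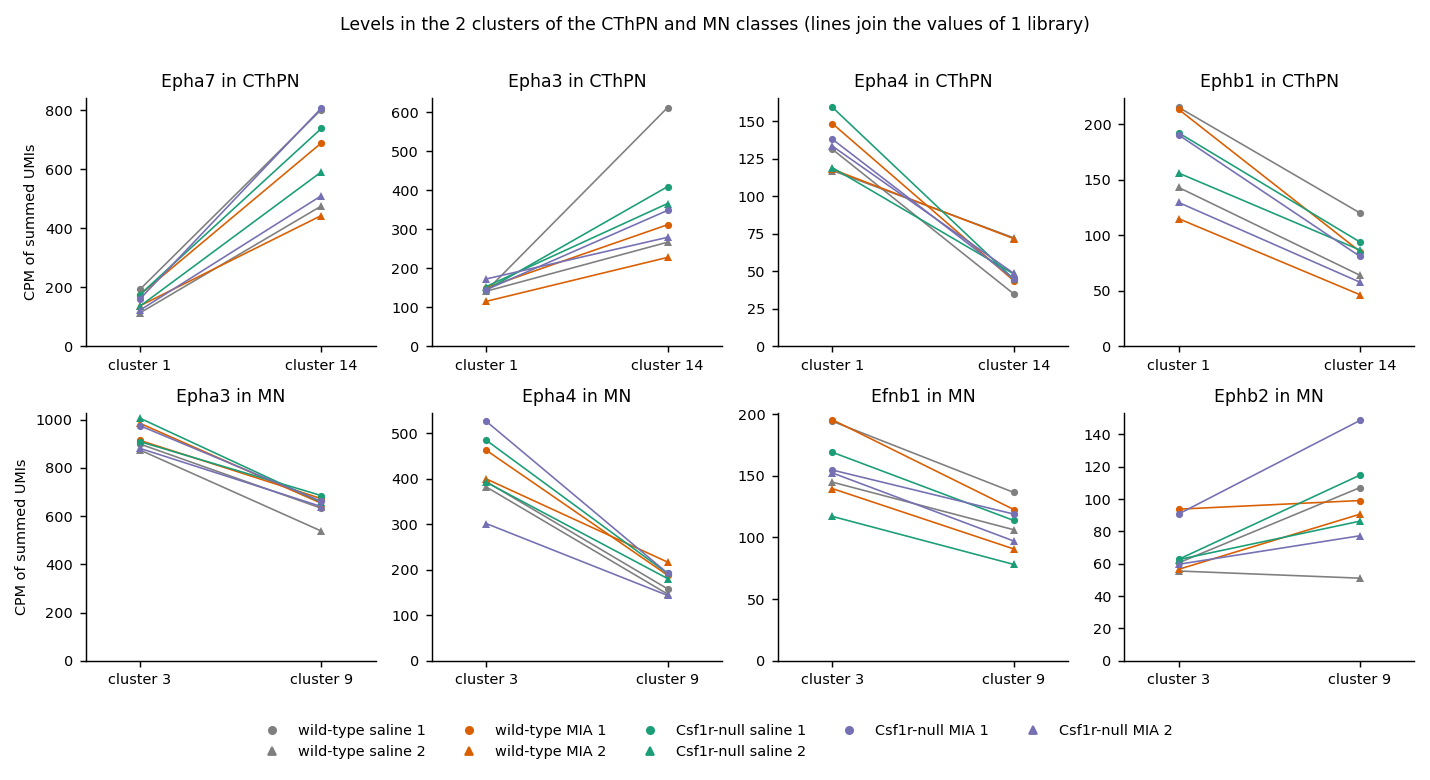
Levels in CPM (vertical axes, from 0) of 4 members in the 2 clusters of the CThPN-like class (upper row) and of the MN-like class (lower row), with a line joining the values of each library. Every line rises for Epha7 and Epha3 from cluster 1 to cluster 14 and falls for Epha4 and Ephb1, and every line falls for Epha3, Epha4 and Efnb1 from cluster 3 to cluster 9.

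The study asked whether microglia shape the response of other cortical cells to maternal inflammation, so each member was compared between MIA and saline within each genotype and class, and between genotypes. None of the 60 pairs of member and class tested passed an adjusted p of 0.05 (edgeR quasi-likelihood test) in any of the 5 contrasts, MIA against saline in wild-type and in Csf1r-null nuclei, the difference of these responses, and Csf1r-null against wild type after saline and after MIA. The background was 0% in each, since none of the 68945 pairs of gene and class was called. An unadjusted p under 0.05 was reached by 3 member pairs in wild-type MIA against saline (background 6.2%), 0 in Csf1r-null MIA against saline (1.28%), and 1 each in the difference of responses (3.23%), the genotypes after saline (6.04%) and the genotypes after MIA (1.08%). By DESeq2 0 member pairs were called in each, where 0.144%, 0%, 0%, 0.12% and 0.00145% of the pairs with an adjusted p were, in the order of the contrasts above. DESeq2 gave no adjusted p to 11 of the 60 member pairs in wild-type MIA against saline and to 11 in the genotypes after saline. With the replicate number as a term in the model 2 member pairs were called in wild-type MIA against saline (0.637%) and 0 in the other contrasts (0%, 0.00145%, 0.328% and 0.0087%). Contrasts that share the same saline or MIA libraries are not independent of each other. A sum over nuclei cannot tell a change in transcripts per nucleus from a change in the mix of nuclei within a class.

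In the class where each receptor was highest, the members moved little beside their errors. In MN-like nuclei the wild-type saline libraries had 765 and 673 CPM of Epha3, the wild-type MIA libraries 807 and 909, the Csf1r-null saline libraries 809 and 930 and the Csf1r-null MIA libraries 840 and 801. Both wild-type MIA libraries were above both wild-type saline ones, and the Csf1r-null groups overlapped. The log2 difference was 0.19 ± 0.18 in wild type and -0.08 ± 0.18 in Csf1r-null nuclei. Epha5 in MN-like nuclei had 4508 and 3930 CPM after saline and 4682 and 5091 after MIA in wild type, and 4324 and 5607, then 4549 and 4606 in Csf1r-null nuclei. It had the same order of groups as Epha3, with differences of 0.15 ± 0.19 and -0.11 ± 0.19. The lower Csf1r-null values of both genes after MIA were not seen without both libraries that go against their labels. There the Csf1r-null differences were 0.07 ± 0.27 (Epha3) and 0.13 ± 0.26 (Epha5), the wild-type ones 0.08 ± 0.27 and 0.06 ± 0.26, and the difference of responses of Epha5 turned from -0.26 to 0.07. Epha4 in IP-like nuclei had 405 and 415 CPM after saline and 552 and 440 after MIA in wild type, and 434 and 472, then 548 and 385 in Csf1r-null nuclei. Its wild-type groups did not overlap, its Csf1r-null groups did, and the differences were 0.22 ± 0.22 and 0.02 ± 0.22.

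The ranges of the receptors of CThPN-like nuclei overlapped between treatments in both genotypes. Epha7 had 271 and 162 CPM after saline and 227 and 175 after MIA in wild type, and 251 and 200, then 232 and 181 in Csf1r-null nuclei, with differences of -0.12 ± 0.22 and -0.13 ± 0.22. Ephb1 had 203 and 132 CPM, then 200 and 106 in wild type, and 179 and 146, then 178 and 119 in Csf1r-null nuclei, with differences of -0.14 ± 0.28 and -0.13 ± 0.28. In both genes replicate 1 of each group was above replicate 2. Between libraries of the same number, Ephb1 was lower after MIA in 4 of 4 pairs and Epha7 in 3 of 4. The share of such pairs over all genes was not counted. For Ephb1 the replicate 1 pairs were close (203 and 200 CPM, 179 and 178 CPM). Each replicate 2 pair holds 1 of the libraries that go against their labels. Without both of those libraries the differences of Ephb1 were 0.21 in wild type and -0.22 in Csf1r-null nuclei. With the replicate block the differences were -0.16 ± 0.16 and -0.15 ± 0.16 for Ephb1 and -0.11 ± 0.15 and -0.13 ± 0.15 for Epha7, in wild-type and Csf1r-null nuclei, and none passed. Ephb2 in CPN-like nuclei had 99.2 and 75.7 CPM, then 105 and 89.2 in wild type, and 110 and 98.3, then 125 and 70.3 in Csf1r-null nuclei, with overlapping groups and differences of 0.12 ± 0.26 and -0.06 ± 0.25.

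The ephrin genes gave differences of like size. Efnb1 in AP-like nuclei had 471 and 393 CPM after saline and 564 and 484 after MIA in wild type (0.21 ± 0.23), and 490 and 393, then 597 and 349 in Csf1r-null nuclei (0.08 ± 0.23). Efnb2 in MN-like nuclei had 435 and 321 CPM after saline and 495 and 470 after MIA in wild type, and 496 and 405, then 489 and 386 in Csf1r-null nuclei. Both genes were higher in both wild-type MIA libraries than in both saline ones and overlapped in Csf1r-null nuclei. The difference of Efnb2 in wild type, 0.29 ± 0.19 (adjusted p = 0.633), was the largest of a member in its highest class, and it was -0.03 ± 0.19 in Csf1r-null nuclei. Without both libraries that go against their labels the differences in wild type and Csf1r-null nuclei were 0.30 ± 0.31 and -0.04 ± 0.31 for Efnb1 and 0.31 ± 0.29 and -0.14 ± 0.29 for Efnb2. Efna3 in CThPN-like nuclei had 57.2 and 77.6 CPM, then 64.9 and 73.2 in wild type (-0.02 ± 0.21), and 60.1 and 59.5, then 63.3 and 66.5 in Csf1r-null nuclei (0.12 ± 0.21). For this gene the wild-type groups overlapped, and both Csf1r-null MIA libraries were above both Csf1r-null saline ones. Efna5, with 5.42 to 13.5 CPM in IN-like nuclei, did not pass the filter there. It was tested in MN-like, SCPN-like and CThPN-like nuclei and not called. In MN-like nuclei it had 4.29 and 2.91 CPM after saline and 6.99 and 6.06 after MIA in wild type. That difference was 0.79 ± 0.58 (edgeR, adjusted p = 0.691), and in Csf1r-null nuclei it was 0.41 ± 0.67. In wild-type SCPN-like and CThPN-like nuclei the differences were -0.17 ± 0.71 and 0.0039 ± 0.57.

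**Figure D4:**
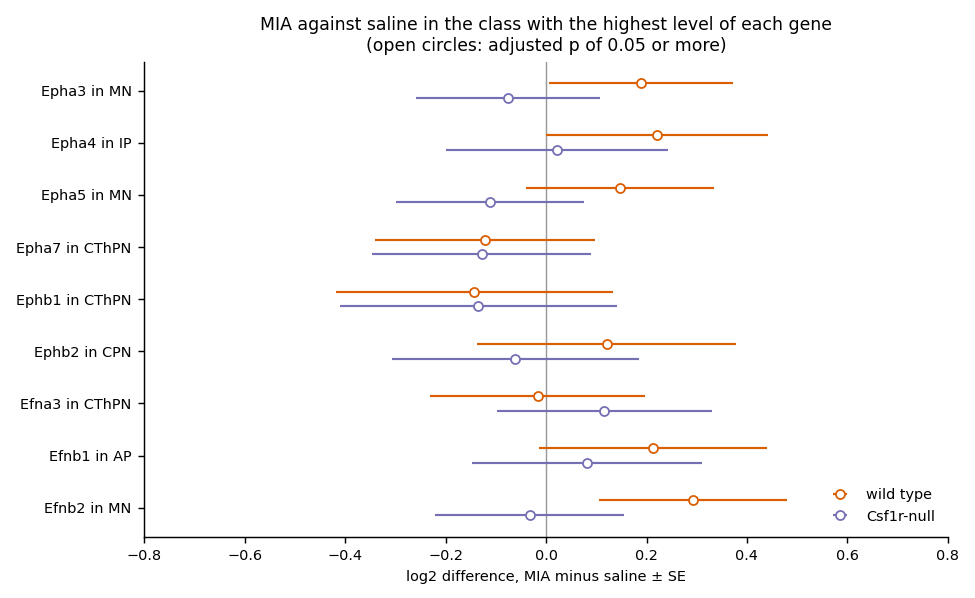
Log2 difference between MIA and saline, with SE (horizontal axis), in the class where each of 9 genes was highest, in wild-type (orange) and Csf1r-null nuclei (purple). All circles are open, since no difference passed the test, and they lie between -0.14 and 0.29 in wild type and between -0.13 and 0.12 in Csf1r-null nuclei.

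In wild type, the MIA and saline libraries did not overlap in 16 of the 60 member pairs, where 37.3% of all pairs did not. In Csf1r-null nuclei this held for 6 of 60, beside a background of 23%. The difference of the MIA responses between genotypes ran from -0.32 ± 0.27 (Efnb2) to 0.13 ± 0.30 (Efna3) in the highest classes. Csf1r-null against wild type ran from -0.19 ± 0.22 (Efna3) to 0.23 ± 0.18 (Epha3) after saline and from -0.14 ± 0.23 (Efnb1) to 0.07 ± 0.22 (Epha7) after MIA. Without both libraries that go against their labels, with 1 library left in each of those groups, 0 member pairs were called in each contrast. In the highest classes of 9 members the differences then ran from -0.13 (Efna3) to 0.37 (Epha4) for MIA in wild type, from -0.23 (Epha7) to 0.17 (Efna3) for MIA in Csf1r-null nuclei and from -0.45 (Efnb2) to 0.29 (Efna3) for the difference of responses. Epha7 and Ephb1 changed sign in wild type, to 0.02 ± 0.30 and 0.21 ± 0.30. The wild-type MIA group then holds replicate 1 only, and in CThPN-like nuclei replicate 1 libraries had 245 CPM of Epha7 in the mean and replicate 2 libraries 180, with 190 and 126 CPM of Ephb1. The part of the replicate number in these signs was not tested. In the same classes, genotype differences without both libraries ran from -0.23 to 0.31 after saline and from -0.38 to 0.07 after MIA.

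In wild-type MIA against saline the 3 pairs under an unadjusted p of 0.05 lay outside the highest classes, and 1 library set the values of the first 2. Epha3 in AP-like nuclei had 125 and 21.9 CPM in wild-type saline replicates 1 and 2, 17.4 and 21.6 after MIA in wild type, 15.7 and 37.7 in Csf1r-null saline and 27.0 and 27.0 in Csf1r-null MIA libraries. Only wild-type saline replicate 1 stood away from the others. The wild-type difference was -2.03 ± 0.58 (edgeR, unadjusted p = 0.00361, adjusted p = 0.421), and when replicate numbers were blocked the difference was -2.005 ± 0.40 and passed (adjusted p = 0.00485). It also passed with no filter on low counts. Without wild-type saline replicate 1 it was -0.28, and without wild-type saline replicate 2 it was -2.74 and passed (adjusted p = 0.0125). With doublets kept it was -1.22, and DESeq2 gave it no adjusted p. For the same pair the difference of responses was 2.07 ± 0.91 (edgeR, unadjusted p = 0.0384, adjusted p = 0.997), and the genotype difference after saline was -1.58 ± 0.60 (edgeR, unadjusted p = 0.0199, adjusted p = 0.683). Without wild-type saline replicate 1 these were 0.31 and 0.17, and with doublets kept 0.74 and -0.71. Without both libraries that go against their labels the wild-type difference was -2.19, the difference of responses 2.98 and the genotype difference after saline -2.32. In the same AP-like nuclei the 10 marker genes of interneurons summed to 109 CPM in wild-type saline replicate 1, with 6 of 10 at 1 UMI or more and Gad1, Lhx6, Npas1 and Erbb4 at 0, and to 5.07 to 27.8 CPM in the other 7 libraries. The other 7 libraries had 3 to 6 of the 10 genes at 1 UMI or more. Epha3 had 234 CPM in cluster 13 of wild-type saline replicate 1. The part of such nuclei in the result was not tested.

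Epha4 in IN-like nuclei was the other pair that passed with the replicate block (-1.39 ± 0.36, adjusted p = 0.0283, and without the block -1.35 ± 0.49, adjusted p = 0.482). It had 97.6 and 24.7 CPM in the wild-type saline libraries, 24.5 and 29.8 after MIA in wild type, 49.3 and 29.4 in Csf1r-null saline and 41.1 and 19.7 in Csf1r-null MIA libraries. Again wild-type saline replicate 1 was the highest of all. Without it the difference was 0.03, without both libraries that go against their labels -1.50, and with doublets kept -0.85. DESeq2 gave no adjusted p here either. A list of 10 ventral forebrain genes summed to 221 CPM in its IN-like nuclei, with 6 of 10 at 1 UMI or more and Drd1, Ikzf1 and Penk among those at 0, beside 29.2 to 67.9 CPM in the other libraries, and Epha4 had 475 CPM in its cluster 13. Their part in the result was not tested. Ephb1 in MN-like nuclei, the last pair under an unadjusted p of 0.05, had 0.874 to 7.15 CPM in all 8 libraries, with -1.71 ± 0.75 in wild type (unadjusted p = 0.0449, adjusted p = 0.499). Its genotype difference after MIA was 1.78 ± 0.76 (edgeR, unadjusted p = 0.0385, adjusted p = 1.00). With each library left out these ran from -2.44 to -1.10 and from 1.10 to 2.52, lowest in size without wild-type saline replicate 1 and Csf1r-null MIA replicate 2. Without both libraries that go against their labels they were -2.45 and 2.52.

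**Figure D5:**
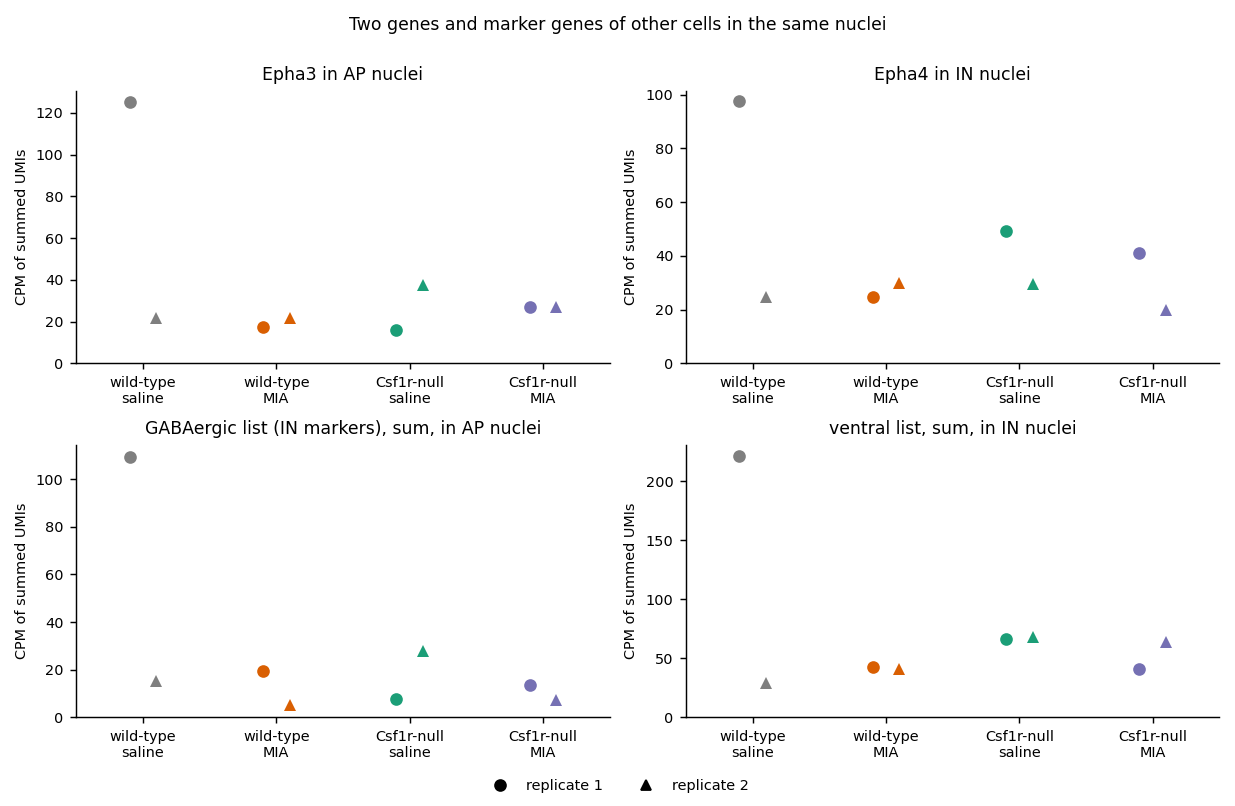
Levels in CPM (vertical axes, from 0) of Epha3 in AP-like and Epha4 in IN-like nuclei (upper row) and the summed levels of interneuron and ventral forebrain marker genes in the same nuclei (lower row), with 1 point per library. Wild-type saline replicate 1 is the highest point of every panel, at 125 and 97.6 CPM above and 109 and 221 CPM below.

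The replicate number also goes with the software version in the file headers, 3.1.0 for replicate 1 and 6.0.1 for replicate 2, with the length of the gene list and with the barcodes listed. Over all nuclei, 4 of the 10 members were higher in every replicate 1 library than in every replicate 2 library, where 17.5% of genes were, and none was the other way, where 4.16% were. They were Epha7 (117 against 86.6 CPM in the mean), Ephb1 (64.9 against 40.8), Ephb2 (75.4 against 49.6) and Efna5 (7.21 against 3.73). Each group holds 1 library of either number, so the contrasts over all 8 libraries are balanced for it, and those without both libraries that go against their labels are not. In the replicate 1 libraries, barcodes with 1 to 100 UMIs, which hold mostly free RNA, held the members at 0.266 times (Epha5) to 1.62 times (Efna3) their CPM in nuclei.

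Across the 56 sums of 8 libraries and 7 classes, which share libraries and depth, the genes closest to each member by Pearson correlation of log2(CPM + 1) among 9607 genes were as follows, as a description. Epha3 was most like Rsrp1 (r = 0.90) and Plxna2 (0.90), Epha4 like Klf3 (0.93) and Ptprf (0.93), Epha5 like Zfp608 (0.89), Epha7 like Cd47 (0.85) and Tle4 (0.73). Tle4 is one of the markers by which CThPN-like nuclei were named, so its likeness to a gene high in that class is not independent of the naming. Ephb1 was most like Rgs6 (0.92) and Kcnv1 (0.91), Ephb2 like Nktr (0.82), Efna3 like Rnf182 (0.91) and Arpp21 (0.90), and Efna5, with few UMIs, like Carmil1 (0.65). Efnb1 was most like Ccnd2 (0.97), a cyclin of cortical progenitors, and Creb5 (0.97), and Efnb2 like Pcdh8 (0.89) and Trib2 (0.88). Among the members, Epha4 and Efnb1 (r = 0.84), Epha5 and Efnb2 (0.80) and Ephb2 and Efnb2 (0.71) were most alike. Efna3 and Efnb1 ran most in opposite directions (r = -0.74), followed by Ephb1 with Efnb2 (-0.73) and Ephb1 with Epha5 (-0.73).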

How the data were processed

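Single-nucleus RNA sequencing of 8 cortex libraries was used, and the 18 libraries of sorted microglia were not used here. The values are raw UMI counts per gene and barcode as deposited by the authors, who aligned and counted the reads on mm10 in Cell Ranger and did not normalize them. The labels name version 3.1.0, and the file headers give 3.1.0 for replicate 1 (6794880 barcodes and 31053 genes listed) and 6.0.1 for replicate 2 (called barcodes and 32285 genes). The deposited gene and barcode lists hold names only. Genes were joined by Ensembl identifier. The authors' own cell annotation was not used here. The members, lists and tests were chosen with earlier results of these data known.

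Nuclei had at least 500 UMIs and 200 genes. Doublets were scored with Scrublet in scanpy 1.11.5 and removed at 0.8% per 1000 nuclei. Nuclei were clustered on 2000 variable genes without Csf1r, the genes the study reported, and the Eph, ephrin and pathway genes (30 principal components, 20 neighbours, Leiden resolution 1, leidenalg 0.10.2). A cluster was called X-like where at least 3 markers of one list reached 20 CPM and the score of that list reached 0.5. That score also had to lead by 0.3 every other list with at least 3 markers at 20 CPM. A cluster of AP-like or IP-like nuclei with a score for division genes of at least 1 was kept apart as dividing. Of the clusters, 5 with 8830 nuclei stayed unnamed. Among them, clusters 7 (2948 nuclei) and 12 (1077 nuclei) scored highest for the CPN list, with leads of only 0.082 and 0.19. They are not part of the CPN-like class. The class names were rebuilt here and may differ from the study's.

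UMIs were summed per library and class. edgeR 4.0.16 (quasi-likelihood test, TMM, filterByExpr, R 4.3.3) was fitted per class with 4 groups in 1 model and 5 contrasts, and once over classes with the library as a block, with Benjamini-Hochberg adjustment over all genes tested in a class and contrast and a threshold of 0.05. The main test of the study for nuclei (NEBULA) takes each nucleus as an observation with the sample as a random effect and was not run here. The study also ran DESeq2 on summed counts, which is an alternative here. Members are all named, in every class comparison and, for treatment and genotype, in the class of their highest mean. Pairs under an unadjusted p of 0.05 are also given, and clusters within a class were looked at after the classes were known. Other genes of the family and pathway are named for the size of their difference. The scripts were tested on simulated data. Same-numbered libraries deviated together, with correlations of 0.336 to 0.432 between libraries of different groups, and share a software version, so the fit with the replicate number as a block is given where it changed a call. The alternatives were size factors of DESeq2, no filter on low counts, DESeq2 1.42.0, at least 1000 UMIs, doublets kept, Leiden resolution 2, each library left out, both libraries against their labels left out, and the replicate block. Counting error alone is covered by the limits set by counts of 0 (3 counts). Promoter sequences are from RefSeq (GRCm38.p6), and gene positions from GENCODE vM21.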

Additional observations from a re-analysis of the deposited data

How the results depend on the processing

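Of the class differences of single members, 642 values under the alternatives kept their direction and their side of the threshold, 8 newly passed, 16 no longer passed and 9 changed sign. Of the treatment and genotype differences in the highest classes and of the other pairs of member and class under an unadjusted p of 0.05 in that contrast, 724 values kept both, 5 newly passed and 85 changed sign. None of the members had passed in those contrasts with the settings of the report. With 2 libraries per group, and 1 where a library is left out (its spread then taken from the other groups), small differences could not be resolved. Larger ones did not pass with the settings of the report either, such as -2.03 ± 0.58 for Epha3 in AP-like nuclei (wild-type MIA against saline). That value was -0.28 without wild-type saline replicate 1. The lack of calls thus does not by itself exclude large changes. Errors differed between pairs, and for MIA against saline in the highest classes the SEs ran from 0.18 to 0.28.

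Member pairs past the threshold for MIA in wild type numbered 0 with the settings of the report, 1 with no filter on low counts, 2 with the replicate block and 0 to 1 with each library left out. For genotypes after saline 1 pair passed with no filter, Epha3 in AP-like nuclei. Over all genes, the 0 pairs called for MIA in wild type became 270 with no filter, 65 with DESeq2, 439 with the replicate block and 0 to 10 with each library left out. For MIA in Csf1r-null nuclei they became 14 with no filter and 0 to 1 with each library left out. For the difference of responses they became 33 with no filter and 1 with the replicate block. For genotypes after saline they became 192 with no filter, 54 with DESeq2, 2 with at least 1000 UMIs, 226 with the replicate block and 0 to 2 with each library left out, and for genotypes after MIA 24, 1 (DESeq2), 6 (replicate block) and 0 to 1. The replicate block changed no other call of a member. Members higher in SCPN-like than in CPN-like nuclei were 2 in place of 1 with no filter and without both libraries that go against their labels (Efna5 added), and 1 to 2 with each library left out (Efna3 added). All genes called there were 2377 with finer clusters in place of 3856. The cause was not tested for any of these.

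Values whose sign changed are given on the log2 scale. Without both libraries that go against their labels the values were Epha3 0.068, Epha5 0.13 and Efnb1 -0.041 for MIA in Csf1r-null, Epha3 0.069, Epha5 0.013, Epha7 -0.079, Ephb2 -0.033 and Efna3 0.062 for genotypes after MIA, Epha5 0.067 and Ephb1 -0.43 for the difference of responses, Epha5 -0.054, Ephb1 0.057 and Efnb1 0.11 for genotypes after saline, Epha7 0.025 and Ephb1 0.21 for MIA in wild type and Ephb2 0.057 for IN against projection classes. With nuclei of at least 1000 UMIs the values were Epha4 -0.0697 for MIA in Csf1r-null and Ephb2 0.029 for IN against projection classes. With finer clusters the values were Epha4 0.056 for genotypes after MIA, Epha7 0.032, Ephb1 -0.061 and Efnb1 0.034 for the difference of responses, Ephb2 0.00799 for MIA in Csf1r-null, Efna3 0.064 for MIA in wild type and Ephb2 0.024 for IN against projection classes. With DESeq2's size factors in edgeR the values were Ephb1 -0.0078 for the difference of responses and Ephb2 0.0074 for IN against projection classes. With no filter on low counts the values were Ephb1 -0.0045 for the difference of responses. With DESeq2 the values were Ephb1 -0.0073 for the difference of responses and Ephb2 0.0075 for IN against projection classes. With doublets kept the values were Ephb1 -0.015 for the difference of responses, Efna3 0.00504 for MIA in wild type and Efnb1 0.0399 for genotypes after saline. With the replicate block the values were Efna3 0.0042 for MIA in wild type. With each library left out in turn, the lowest and highest values for MIA in Csf1r-null were Epha3 -0.22 to 0.088, Epha4 -0.18 to 0.20, Epha5 -0.33 to 0.15, Ephb1 -0.38 to 0.0696, Ephb2 -0.50 to 0.22, Efnb1 -0.30 to 0.36 and Efnb2 -0.15 to 0.069. For genotypes after MIA these were Epha3 -0.15 to 0.069, Epha4 -0.28 to 0.095, Epha5 -0.15 to 0.013, Epha7 -0.086 to 0.22, Ephb1 -0.38 to 0.46, Ephb2 -0.40 to 0.32, Efna3 -0.19 to 0.056 and Efnb1 -0.52 to 0.15. For the difference of responses these were Epha5 -0.48 to 0.0068, Epha7 -0.33 to 0.26, Ephb1 -0.36 to 0.49, Ephb2 -0.63 to 0.10, Efna3 -0.20 to 0.40 and Efnb1 -0.51 to 0.17. For genotypes after saline these were Epha5 -0.071 to 0.41, Epha7 -0.19 to 0.39, Ephb1 -0.25 to 0.22, Efna3 -0.45 to 0.14, Efnb1 -0.14 to 0.10 and, in AP-like nuclei, Epha3 -2.34 to 0.17. For MIA in wild type these were Epha7 -0.39 to 0.20, Ephb1 -0.62 to 0.21, Ephb2 -0.0085 to 0.30, Efna3 -0.28 to 0.31 and, in IN-like nuclei, Epha4 -1.89 to 0.025. For IP against AP these were Ephb1 -1.03 to 0.083. For MN against IP these were Ephb1 -0.74 to 0.10. For IN against projection classes these were Ephb2 -0.064 to 0.055.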
